A study of Mus musculus with 8 samples.

Results

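The set described here holds 35 mouse genes of sugar breakdown and of the response to low oxygen, in intraepithelial lymphocytes (IELs) of the gut. They were taken by symbol from the 25230 symbols of the count table. Of these, 23 form the glycolysis class, with the glucose and lactate transporters, the enzymes of the path from glucose to lactate and the enzymes that set its pace. The other 12 form the hypoxia class, with the oxygen-sensitive transcription factor subunit Hif1a, genes known as its targets and kinases that inhibit pyruvate dehydrogenase. All 8 mice were of the strain C57BL/6J and carried no genetic change named in the labels. Each received 35 µg of antibody to CD3 into the peritoneum, which activates T cells. In 4 mice this went with the vehicle PBS (replicates PBS 1 to 4), and in 4 with 10 nmol/kg of exendin-4 (Ex4 1 to 4), a peptide agonist of the glucagon-like peptide 1 receptor. IELs were collected 3 h later over Percoll and sorted for CD45, a marker of all white blood cells, so the gate did not separate T cells from other leukocytes. With no group left without anti-CD3, the data compare exendin-4 with PBS in activated IELs and do not show the effect of activation on these genes. The age and sex of the mice were not given in the sources used here.

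Glycolysis turns glucose into pyruvate, and activated T cells are known to convert much of that pyruvate to lactate even where oxygen is plentiful. Hexokinase, phosphofructokinase and pyruvate kinase catalyse its committed steps, and several isozymes encoded by separate genes can fill each position. HIF-1, a dimer of the Hif1a and Arnt proteins, is degraded when prolyl hydroxylases (Egln genes) mark Hif1a in the presence of oxygen. When stabilised, it binds short DNA motifs at many glycolytic genes, which is why both classes are often read together. Hif1a is controlled chiefly as a protein, so a transcript count of Hif1a does not measure HIF-1 activity.

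The libraries held 13386889 (Ex4 4) to 31843413 (Ex4 3) counts, and the limit that a count of 0 allows, 3 counts, came to 0.103 to 0.212 CPM (counts scaled to a library of 1000000 counts). The 8 T cell markers, Cd3e among them, summed to 6151 to 7284 CPM with PBS and 6471 to 7296 CPM under exendin-4. Cd8a, a coreceptor of many IELs, named after its values were seen, had 1600.1 ± 322 CPM with PBS and 1060.1 ± 116 CPM under exendin-4 and no overlap between groups (log2 fold change -0.59, adjusted p = 0.351 in edgeR and 0.0259 in DESeq2). Of all genes tested, 2.66% were apart in this direction. The T cell markers mostly went the other way, with 6 of the 8 above 0, 2 below and a median log2 fold change of 0.15. Cd8b1, also named after its values were seen, was at 0.40. Epithelial transcripts were present although the cells were sorted for CD45. The 18 epithelial markers summed to 611 to 1366 CPM with PBS and 343 to 750 CPM under exendin-4, 15 of the 18 had a log2 fold change below 0, and 1 was at 0 counts in some library. Epcam, the epithelial adhesion molecule, had 161 ± 16.4 CPM with PBS and 125.6 ± 19.9 CPM under exendin-4 (SD, n = 4 each) and no overlap between groups (edgeR log2 fold change -0.36, adjusted p = 0.557). In all, 2 of the 18 epithelial markers were apart with lower values under exendin-4, as were 2.66% of all genes tested. The 6 B and plasma cell markers summed to 833 to 1458 CPM with PBS and 253 to 2189 CPM under exendin-4. The 9 myeloid markers, with Csf1r, summed to 91.8 to 163 CPM with PBS and 109.6 to 146 CPM under exendin-4. Of 11 stromal, endothelial and red cell markers, 6 were at 0 in some library, while Pecam1, which leukocytes can also carry, was at 65.4 ± 16.7 CPM with PBS and 38.6 ± 9.93 CPM under exendin-4. In bulk RNA of this kind, fewer cells of a type and less RNA per cell cannot be told apart. PBS 1 stood apart among the control libraries, with a mean chi-square per gene of 57.2 to 77.1 against the others, whose own pairs gave 20.6 to 42.6. It held the highest or lowest value of all 8 in 14 of the 35 genes (40% against 33.6% of all genes tested), so results are given with and without it. At matched depth PBS 2 and Ex4 3 had the fewest genes, 16098 and 16349, where the other libraries had 17465 to 19087.

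All 35 genes passed the filter on low counts, and exendin-4 changed 0 of them beyond the threshold of 0.05 on the adjusted p in edgeR's quasi-likelihood test. DESeq2 and limma-voom also called 0 of the 35, as did edgeR without PBS 1, where 1 gene in all was called (0.00658%). DESeq2 gave no adjusted p for Pfkm, Aldoc, Eno2, Slc16a3, Egln3, Ankrd37, Vegfa and P4ha1, so it could not call them. Over all 14691 genes tested edgeR called 2 genes, 0.0136% of them, DESeq2 83 (0.565%) and limma-voom 1 (0.00681%). At an unadjusted p under 0.05, 3 hypoxia genes were higher with exendin-4 (Ndrg1, Hif1a and Bnip3l) and 3 glycolysis genes were lower (Pfkp, Pfkl and Tpi1). These 6 are 17.1% of the set, where 7.61% of all genes had such a p, 3.71% higher and 3.9% lower. In the glycolysis class 9 log2 fold changes were above 0 and 14 below, with a median of -0.08. The hypoxia class had 6 above and 6 below, with a median of 0.06, against a median of 0.02 over all genes tested, 47.1% of which were below 0.

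**Figure D1:**
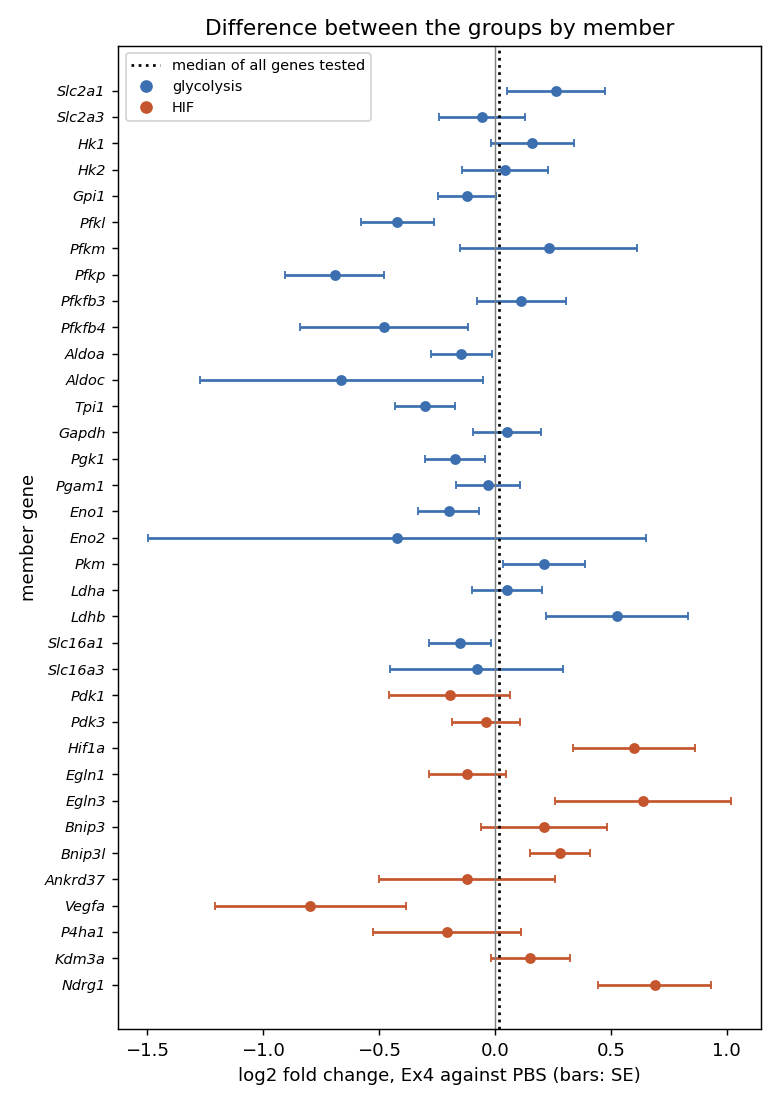
Fitted log2 fold change (exendin-4 minus PBS) of each of the 35 genes on the horizontal axis, with bars for the SE and a dotted line at the median of all genes tested (0.02). The values run from -0.79 for Vegfa to 0.69 for Ndrg1, and 0 of the 35 pass the adjusted threshold.

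Because both classes are linked by HIF-1 binding motifs, the DNA upstream of their start sites is shown for 4 of them, chosen as the lowest fold change of the glycolysis class (Pfkp), the most abundant gene of each class per length (Ldha and Hif1a) and a mitophagy receptor known as a hypoxia target (Bnip3). Each sequence is the 250 bases before the first listed RefSeq start, from RefSeq on build GRCm38.p6, read 5′ to 3′ on the strand of the gene. Capitals mark the motifs ACGTG and GCGTG, searched on both strands, so that CACGT and CACGC also appear in capitals. CACGTG reads the same on both strands, counts as 1 match on each, and is also the E-box letters.
Pfkp (chr13:6648772-6649021, minus strand): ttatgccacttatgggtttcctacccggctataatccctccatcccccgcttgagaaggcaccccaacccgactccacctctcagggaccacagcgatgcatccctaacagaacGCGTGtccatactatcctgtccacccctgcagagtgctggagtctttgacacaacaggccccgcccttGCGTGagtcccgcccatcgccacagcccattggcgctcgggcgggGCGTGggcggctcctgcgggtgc
Ldha (chr7:46845554-46845803, plus strand): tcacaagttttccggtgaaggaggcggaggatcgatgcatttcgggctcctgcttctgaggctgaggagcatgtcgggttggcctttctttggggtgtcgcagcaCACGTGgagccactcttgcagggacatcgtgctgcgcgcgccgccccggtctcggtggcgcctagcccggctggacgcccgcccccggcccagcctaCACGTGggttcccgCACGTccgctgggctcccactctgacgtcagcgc
Hif1a (chr12:73907617-73907866, plus strand): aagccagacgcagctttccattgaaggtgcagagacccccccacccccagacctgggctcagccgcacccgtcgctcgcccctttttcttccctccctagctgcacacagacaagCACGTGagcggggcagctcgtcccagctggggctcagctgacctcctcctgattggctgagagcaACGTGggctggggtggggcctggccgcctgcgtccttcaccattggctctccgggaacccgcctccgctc
Bnip3 (chr7:138909507-138909756, minus strand): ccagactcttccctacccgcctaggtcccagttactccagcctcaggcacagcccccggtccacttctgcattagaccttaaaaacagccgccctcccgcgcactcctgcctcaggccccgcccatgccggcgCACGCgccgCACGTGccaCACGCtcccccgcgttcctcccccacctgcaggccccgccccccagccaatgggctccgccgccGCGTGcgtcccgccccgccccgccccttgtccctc
Pfkp held 3 matches, all in the form GCGTG, and no palindrome. Ldha held 5 matches, with 2 CACGTG palindromes, Hif1a 3 with 1 palindrome, and Bnip3 5 with 1 palindrome. These windows are not typical of the set, where the median over all starts was 1 match and the highest 5. Of the 35 genes 32 were matched in the RefSeq promoter table, with 48 start sites, and Slc2a3, Bnip3l and Ndrg1 were not. At least 1 match lay before 37 of these 48 starts (77.1%), or 27 of 34 in the glycolysis class (79.4%) and 10 of 14 in the hypoxia class (71.4%). Windows of the same length held a match at 38.6% of all 32851 RefSeq starts and at 52.9% of the starts of genes tested here. Counted per gene, with a match before any of its starts, the order of the classes was reversed. It was 19 of 22 glycolysis genes (86.4%) and 10 of 10 hypoxia genes (100%), against 58.1% of the genes tested that had a listed start. The windows also differed in base composition, with a median GC content of 61% against 52.4% over all starts and 59.2% over genes tested. These matches describe the letters of the windows, and binding was not measured.

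Ldha, the subunit of lactate dehydrogenase that favours lactate formation (chr7:46842274-46855627), was the most abundant of the 35 per length of transcript. It was measured at 1114, 1494, 1161 and 1347 CPM in PBS 1 to 4 and at 1502, 1313, 1410.0 and 1084 CPM in Ex4 1 to 4. The groups overlapped almost completely, with both the highest and the lowest value among the exendin-4 mice. Its log2 fold change was 0.05 (SE 0.15, 95% confidence interval -0.27 to 0.37, edgeR adjusted p = 0.964). Divided by the length of its exons, Ldha stood at 393.7 ± 50.2 CPM per kb (SD, all 8 libraries), ahead of the pyruvate kinase gene Pkm at 204 ± 37.7 and the aldolase gene Aldoa at 140.1 ± 14.6 CPM per kb. The enolase gene Eno1 (75.4 ± 8.73 CPM per kb), Gapdh (66.3 ± 9.05) and the triosephosphate isomerase gene Tpi1 (43.5 CPM per kb) followed. Each of the first 5 differed from the one after it by more than the larger of the 2 SDs. Hif1a came seventh at 42.7 ± 13.6 CPM per kb, within its spread of Tpi1 above and of the phosphoglycerate kinase gene Pgk1 (35.4 CPM per kb) below. Neighbours in the middle of the order mostly did not differ beyond their spread, for example Hk2 at 19.3, Pfkp at 18.5 and Pdk3 at 13.7 CPM per kb. At the low end the lactate exporter gene Slc16a3 (0.784 CPM per kb), the aldolase gene Aldoc (0.334) and the enolase gene Eno2 (0.131) were again separated beyond the spread.

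**Figure D2:**
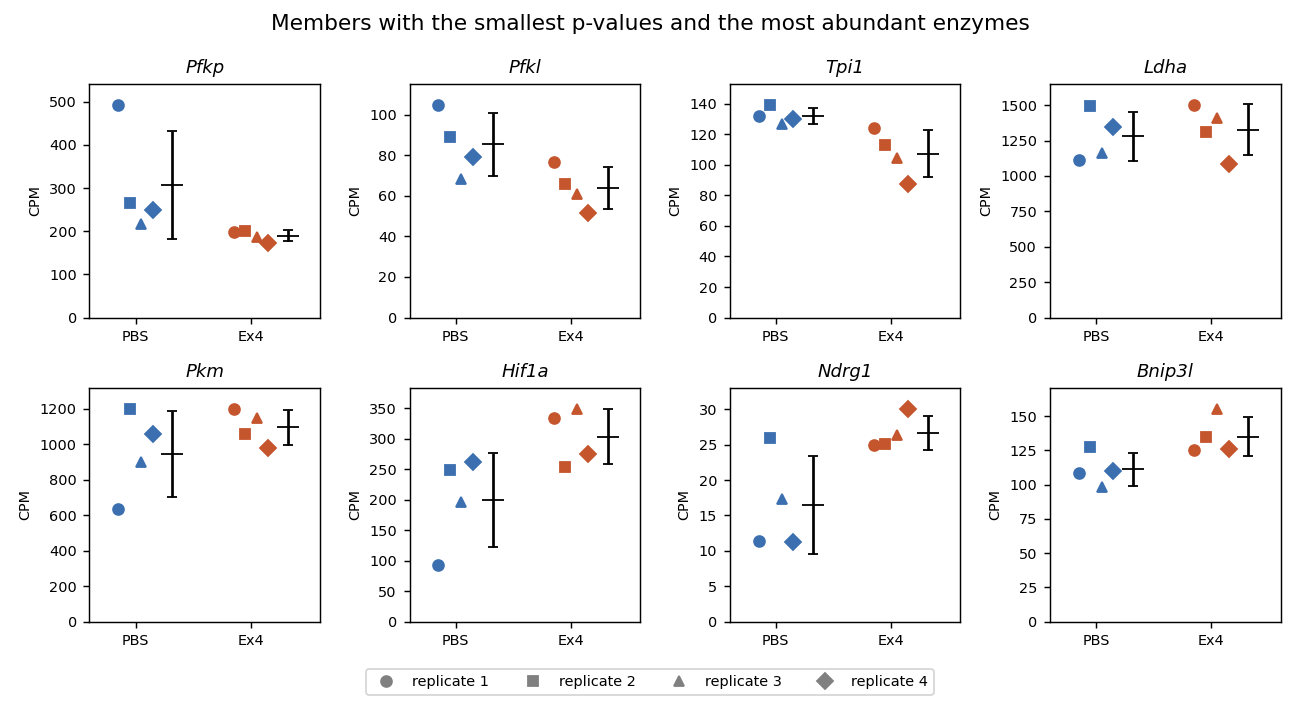
CPM (vertical, from 0) of 8 genes in each library, 1 panel per gene, with PBS in blue and exendin-4 in orange, the marker shape giving the replicate number and black marks the mean ± SD. For Ldha the exendin-4 values from 1084 to 1502 CPM enclose the PBS values from 1114 to 1494 CPM.

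Among the glucose transporters and hexokinases, which bring glucose in and trap it as glucose 6-phosphate, both groups overlapped for all 4 genes. Slc2a1 (GLUT1) ranged from 21.4 to 42.7 CPM with PBS and from 34.7 to 44.8 CPM under exendin-4 (edgeR log2 fold change 0.26, SE 0.21, adjusted p = 0.834). PBS 1 was its lowest library, and without that mouse the log2 fold change was 0.09. Slc2a3 (GLUT3) ranged from 55.4 to 76.3 CPM with PBS and from 42.7 to 83.5 CPM under exendin-4. Per length the 2 transporters were about equal, Slc2a3 making up 51.0 ± 8.34% of their sum with PBS and 44.1 ± 6.21% with exendin-4 (SD, n = 4 each). Hk2, the inducible hexokinase, held 80.9 ± 6.06% of hexokinase signal with PBS and 79.9 ± 4.67% with exendin-4, the rest being Hk1. The log2 fold changes were 0.16 for Hk1 (95% confidence interval -0.22 to 0.54) and 0.04 for Hk2 (-0.35 to 0.44). That of Hk1 was 0.0091 without Ex4 1 and 0.28 without PBS 2. Gpi1, which converts glucose 6-phosphate to fructose 6-phosphate, was at 159.6 ± 17.4 CPM with PBS and 147 ± 11.7 CPM under exendin-4.

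Phosphofructokinase, the pace-setting step, held the lowest fold change of the glycolysis class and 2 of its 3 smallest p. Pfkp (chr13:6579874-6649060), which encodes the platelet-type subunit, had 493, 266, 218 and 250.1 CPM in PBS 1 to 4 and 197, 202, 188 and 174 CPM in Ex4 1 to 4. All 4 exendin-4 mice lay below all 4 PBS mice, and PBS 1 lay far above the other controls. The means were 307 ± 126 and 190.0 ± 12.3 CPM, with a log2 fold change of -0.69 (SE 0.21, edgeR adjusted p = 0.432). Without PBS 1 the log2 fold change was -0.37 (edgeR adjusted p = 0.688), and the groups of Pfkp and Tpi1 alone did not overlap, where 7.23% of all genes were in that state. DESeq2 gave Pfkp an adjusted p of 0.0911, the lowest of any of the 35 genes under any alternative. Of the Pfkp exons, 748 bases (5.58%) are shared with Pitrm1 on the opposite strand, and whether counting used strand was not given in the sources used here.

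Pfkl (chr10:77986947-78009807), the liver-type subunit, had 105, 89.2, 68.3 and 79.1 CPM in PBS 1 to 4 and 76.7, 65.9, 60.8 and 51.7 CPM in Ex4 1 to 4. The groups overlapped, since PBS 3 lay below Ex4 1. The log2 fold change was -0.42 (SE 0.16, edgeR adjusted p = 0.543), and -0.32 without PBS 1. Pfkm, the muscle-type subunit, was scarce at 4.01 ± 1.12 CPM with PBS and 4.71 ± 1.62 CPM under exendin-4. By length-scaled signal Pfkp made up 60.9 ± 5.49% of the 3 subunits with PBS and 56.6 ± 2.98% with exendin-4, and Pfkl 35.5 ± 4.11% and 37.8 ± 2.46%. These proportions overlapped between groups. The genes of the bifunctional enzymes that make and remove fructose 2,6-bisphosphate, the activator of phosphofructokinase, overlapped between groups too. Pfkfb3 ranged from 16.3 to 21.7 CPM with PBS and from 16.3 to 25.2 CPM under exendin-4, and Pfkfb4 from 4.61 to 13.6 and from 3.85 to 7.29 CPM.

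**Figure D3:**
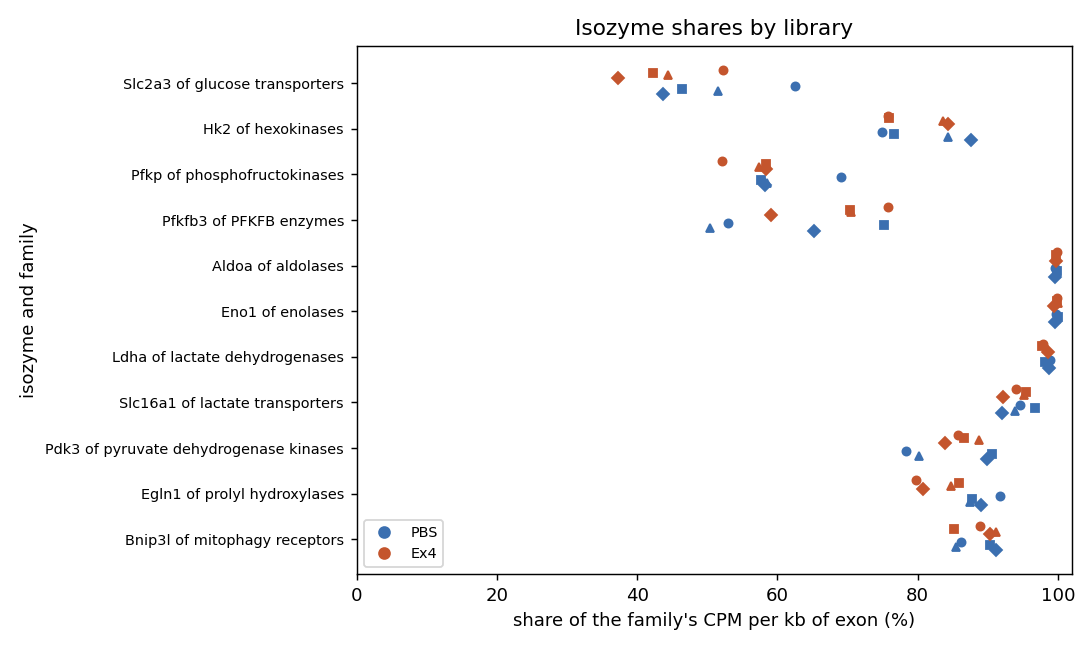
Share of each isozyme family's length-scaled signal held by a single named member, in percent per library, with PBS in blue and exendin-4 in orange. Pfkp held 57.7 to 69.1% of phosphofructokinase signal with PBS and 52.2 to 58.4% with exendin-4. Of the 11 families the groups separated only in the prolyl hydroxylases, where Egln1 and Egln3 are counted and Egln2 is left out.

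Further along the pathway Tpi1 (chr6:124810586-124814158), which interconverts the 2 triose phosphates, was the only gene besides Pfkp with groups that did not overlap. It had 132, 139, 127 and 130.1 CPM in PBS 1 to 4 and 124, 113, 104 and 87.5 CPM in Ex4 1 to 4. The gap between the lowest PBS mouse and the highest exendin-4 mouse was small, and with scaling by total counts alone the groups of Tpi1 overlapped, while those of Pfkp and Bnip3l did not (5.37% of all genes). The log2 fold change was -0.30 (SE 0.13, edgeR adjusted p = 0.614), and -0.31 without PBS 1. Pfkp and Tpi1 together are 5.71% of the 35, where 4.95% of all genes tested had groups that did not overlap 2.66% with lower and 2.29% with higher values under exendin-4. The share in the set is therefore near the background. With 1 library left out, between 2 and 5 genes of the 35 (7.10 to 9.11% of all genes) had groups that did not overlap. Leaving out a library cannot by itself make separate groups overlap, so this says nothing of the stability of Pfkp and Tpi1.

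Of the 18 epithelial markers 0 were called by edgeR, DESeq2 or limma-voom, and 3 were lower with exendin-4 at an unadjusted p under 0.05 in edgeR. With the epithelial score of each library as a covariate, the log2 fold changes were -0.76 for Pfkp, -0.51 for Pfkl and -0.33 for Tpi1, at edgeR adjusted p of 0.202, 0.290 and 0.505.

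The groups overlapped for the other enzymes from aldolase to pyruvate kinase. Aldoa was at 546 ± 61.4 CPM with PBS and 494 ± 35.0 CPM under exendin-4 (log2 fold change -0.14), and Eno1 at 433 ± 38.7 and 378 ± 39.8 CPM (-0.20). Gapdh, the oxidising step, was at 269 ± 44.2 and 279 ± 35.2 CPM (0.05). Pgk1 and Pgam1, which form the first ATP and move the phosphate, had log2 fold changes of -0.17 (95% confidence interval -0.44 to 0.10) and -0.03 (-0.32 to 0.26). Pkm ranged from 634 to 1198 CPM with PBS and from 978 to 1198 CPM under exendin-4, with PBS 1 the lowest of all 8 (log2 fold change 0.21, and 0.05 without PBS 1). Several of these genes have near copies elsewhere in the genome, which makes their counts less certain. Of all 100-base stretches in their transcripts, 51.7% in Pgk1, 33.9% in Pgam1, 20.9% in Gapdh, 20.4% in Eno1, 14.0% in Bnip3l and 12.3% in Pkm also occur in transcripts of another gene, while 22 of the 35 share none.

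Aldoa and Eno1 nearly filled their isozyme families, at 99.7 ± 0.134% of aldolase and 99.8% of enolase signal with PBS. Aldoc and Eno2, known best from nerve tissue, were scarce, with 14 to 41 counts of Aldoc and 0 to 23 counts of Eno2 per library. Of these, only Eno2 reached the limit of detection. Eno2 had 0 counts in Ex4 3 and 1 count in PBS 2, so that its log2 fold change of -0.42 (SE 1.07) carries little information.

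At the end of the pathway Ldhb, the lactate dehydrogenase subunit that favours pyruvate, ranged from 6.20 to 13.0 CPM with PBS and from 7.64 to 15.0 CPM under exendin-4 (edgeR log2 fold change 0.53, SE 0.31, adjusted p = 0.725). Its log2 fold change was 0.40 without PBS 1, 0.38 without PBS 3 and 0.82 without PBS 2. Ldha nevertheless held 98.7 ± 0.325% of lactate dehydrogenase signal with PBS and 98.2 ± 0.390% with exendin-4. Of the lactate transporters, Slc16a1 (MCT1) held 94.4 ± 1.95% and 94.2 ± 1.47% of the signal and ranged from 53.7 to 70.7 CPM with PBS and from 49.1 to 59.4 CPM under exendin-4. Slc16a3 (MCT4) was at 4.28 ± 1.20 and 4.06 ± 1.27 CPM.

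In the hypoxia class Hif1a itself (chr12:73901324-73947554) had 92.6, 248, 197 and 262 CPM in PBS 1 to 4 and 334, 254, 349 and 276 CPM in Ex4 1 to 4. PBS 1 was far below every other mouse, and PBS 4 lay above Ex4 2, so the groups overlapped. The means were 199.9 ± 76.9 and 303 ± 45.3 CPM, with a log2 fold change of 0.60 (SE 0.26, 95% confidence interval 0.02 to 1.18, edgeR adjusted p = 0.636). Without PBS 1 the log2 fold change was 0.35 (edgeR adjusted p = 0.805). Together the 12 genes took 0.0427 to 0.0565% of all counts with PBS and 0.0598 to 0.0695% with exendin-4. These are shares of the total counts with no TMM scaling, and Hif1a and Bnip3l supply most of them. In TMM-scaled log2 CPM, with each gene centred on its mean, the median of the 12 overlapped between groups. It was 0.10 in PBS 2 and -0.05 in Ex4 3. The 23 glycolysis genes took 0.430 to 0.504% and 0.421 to 0.515%.

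Ndrg1 (chr15:66929318-66969641), a stress-response gene induced in hypoxia, had the highest log2 fold change of the 35. It was measured at 11.5, 25.9, 17.3 and 11.2 CPM in PBS 1 to 4 and at 24.9, 25.1, 26.4 and 30.0 CPM in Ex4 1 to 4. The exendin-4 mice lay close together, 3 PBS mice lay below them, and PBS 2 was among them. The log2 fold change was 0.69 (SE 0.24, 95% confidence interval 0.17 to 1.21, edgeR adjusted p = 0.505), and 0.54 without PBS 1 (edgeR adjusted p = 0.831). Without PBS 2 it was 0.98, at an edgeR adjusted p of 0.146.

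Bnip3l (chr14:66985238-67008877), a mitophagy receptor also called NIX, had 109, 127, 98.4 and 110.0 CPM in PBS 1 to 4 and 125, 134, 155 and 126 CPM in Ex4 1 to 4. Only PBS 2 reached the exendin-4 range. The log2 fold change was 0.28 (SE 0.13, edgeR adjusted p = 0.636), 0.26 without PBS 1 and 0.19 without Ex4 3. Its relative Bnip3 was far less abundant, at 8.53 ± 1.84 CPM with PBS and 9.87 ± 2.58 CPM under exendin-4, and Bnip3l held 88.3 ± 2.89% and 88.9 ± 2.64% of the length-scaled signal of the pair. With the epithelial score as a covariate, the log2 fold changes were 0.69 for Hif1a, 0.80 for Ndrg1 and 0.28 for Bnip3l, at edgeR adjusted p of 0.529, 0.344 and 0.583.

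Of the prolyl hydroxylases, which mark Hif1a for degradation, the set holds Egln1 and Egln3, and the shares of this pair separated the groups. Egln2, outside the set and named after its values were seen, was more abundant than either. It was at 60.5 ± 8.28 CPM with PBS and 69.3 ± 8.25 CPM under exendin-4. The shares leave Egln2 out, so they describe the pair and not the whole family. Egln1 (PHD2) was the more abundant of the pair, at 32.8 to 46.1 CPM with PBS and 26.5 to 39.7 CPM under exendin-4. Egln3 (PHD3), itself a hypoxia target, ranged from 2.17 to 4.73 and from 3.52 to 7.44 CPM. Egln1 made up 91.8, 87.8, 87.4 and 89.1% of their length-scaled signal in PBS 1 to 4 and 79.8, 85.9, 84.8 and 80.7% in Ex4 1 to 4. Every exendin-4 mouse had a lower Egln1 share than every PBS mouse, with means of 89.0 ± 1.97% and 82.8 ± 2.99% (SD, n = 4 each). PBS 1 had the highest share. This was 1 of the 11 families looked at, and neither gene alone separated the groups. Egln3 had a log2 fold change of 0.64 (SE 0.38, edgeR adjusted p = 0.734) on 45 to 168 counts per library, and 0.46 without PBS 1.

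Vegfa, the angiogenic growth factor, had the lowest log2 fold change of the 35, with a ratio of 5.89 between its highest and lowest library. Its PBS mice ranged from 4.15 to 9.91 CPM and its exendin-4 mice from 1.68 to 5.10 CPM (edgeR log2 fold change -0.79, SE 0.41, adjusted p = 0.686). PBS 1 held the highest value, and without it the log2 fold change was -0.50. The other hypoxia genes overlapped between groups. P4ha1, a collagen prolyl hydroxylase subunit, was at 7.08 ± 1.93 and 6.14 ± 1.75 CPM, and the histone demethylase gene Kdm3a at 57.7 ± 13.0 and 64.1 ± 8.18 CPM with PBS and exendin-4. Ankrd37, an ankyrin-repeat gene, ranged from 2.79 to 5.12 CPM with PBS and from 2.56 to 5.01 CPM under exendin-4. On the opposite strand, 22.7% of its exon length is shared with Lrp2bp and 3.7% with Ufsp2. Over all libraries Lrp2bp had 32 counts and Ufsp2 6454, where Ankrd37 had 691. Vegfa and Ndrg1 thus lay at opposite ends of the fold changes, though both are known hypoxia targets.

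The kinases Pdk1 and Pdk3 inhibit pyruvate dehydrogenase and so limit the use of pyruvate inside mitochondria. Pdk3 varied little, with a ratio of 1.32 between its highest and lowest library, and held 84.8 ± 6.37% of their joint signal with PBS. Pdk1 ranged from 12.1 to 27.7 CPM with PBS and from 12.9 to 19.1 CPM under exendin-4. Its log2 fold change of -0.19 turned to 0.04 without PBS 1, which held its highest value.

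**Figure D4:**
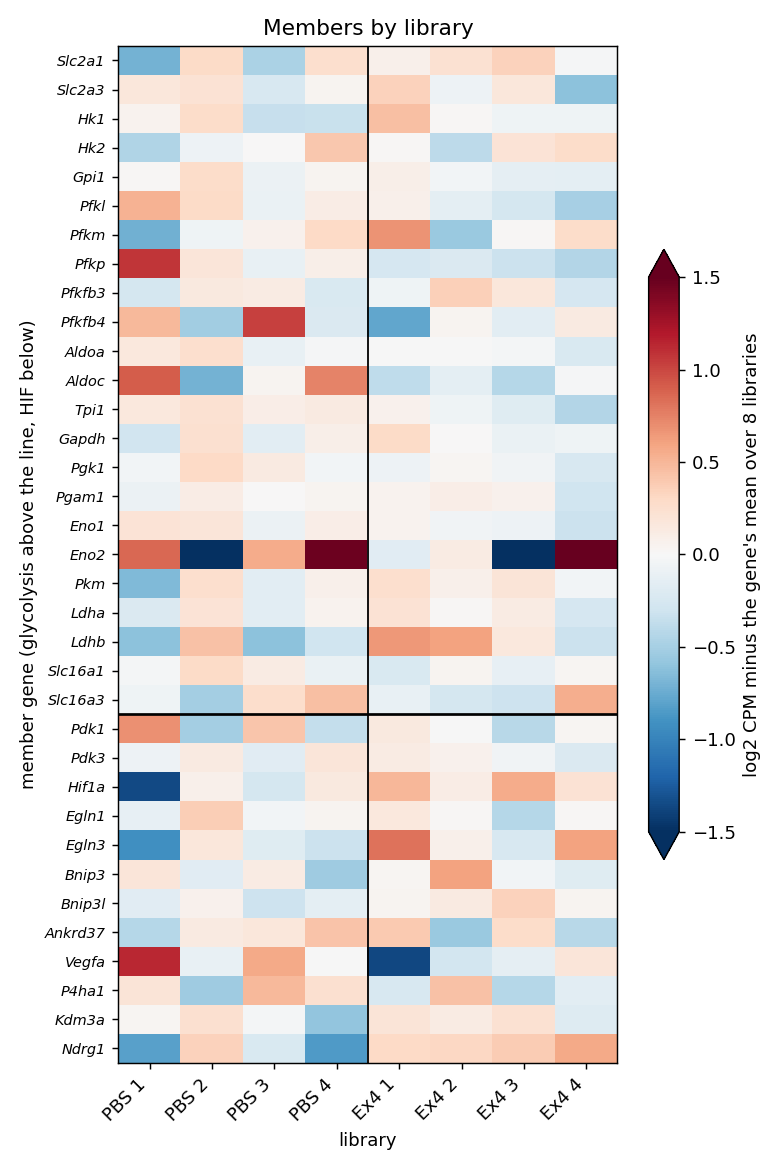
Heat map of log2 CPM of the 35 genes (vertical) in the 8 libraries (horizontal), each gene centred on its mean over the libraries and colours limited to 1.5 in either direction. PBS 1 is high for Pfkp, Vegfa and Pdk1 and low for Hif1a, Pkm and Egln3, and no block of genes separates the 4 exendin-4 columns from the 4 PBS columns.

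The control library PBS 1 weighed on the largest differences of both classes. It held the highest value of the 8 in 6 genes, Pfkp, Pfkl and Vegfa among them, and the lowest in 8, with Hif1a, Pkm, Slc2a1 and Egln3. With all libraries 7 of the 35 had a log2 fold change beyond 0.5 in size, and without PBS 1 only Ndrg1 did. At an unadjusted p under 0.05 the set had 6 genes with all libraries and 4 without PBS 1 (Pfkp, Tpi1, Hif1a and Ndrg1), all of them among the 6. That is 11.4% of the set, where 5.74% of all genes had such a p without PBS 1. Ex4 4 also held the highest or lowest value in 14 genes (36.2% of all genes tested), and in 11 of them it was the lowest. The B and plasma cell marker sum of PBS 1, 1458 CPM, was the highest among the PBS mice, while Ex4 3 had 2189 CPM. The myeloid sum of PBS 1 (163 CPM) and its stromal, endothelial and red cell sum (94.6 CPM) were the highest of all 8. Its epithelial sum (611 CPM) was the lowest among the PBS mice. The part of these sums in the differences was not tested.

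**Figure D5:**
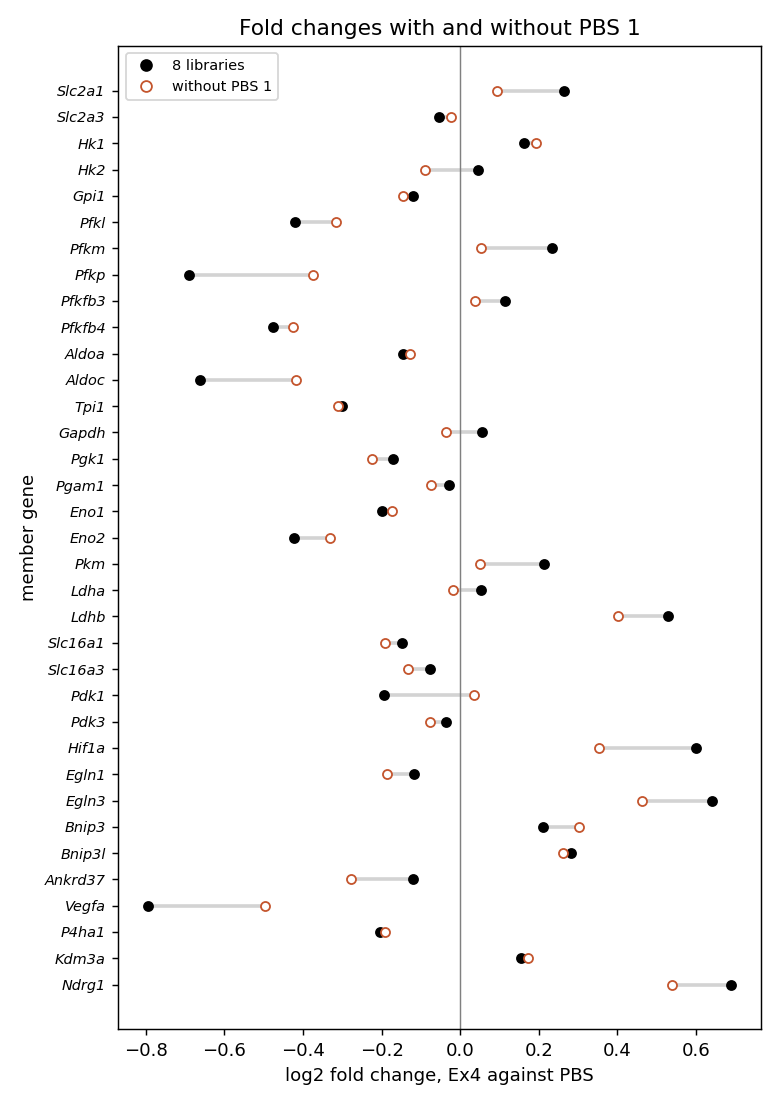
Log2 fold change (horizontal, exendin-4 minus PBS) of each of the 35 genes with all 8 libraries (filled) and without PBS 1 (open), joined by a line. Pfkp moves from -0.69 to -0.37 and Hif1a from 0.60 to 0.35, while Tpi1 (-0.30 and -0.31) and Bnip3l (0.28 and 0.26) move by little.

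Genes of the same pathway outside the set gave 0 calls in each of 6 lists by edgeR, DESeq2 and limma-voom. For some of them, such as Pgam2, DESeq2 gave no adjusted p and so could make no call. At an unadjusted p under 0.05 in edgeR, 1 gene each was lower among the other glycolysis enzymes, the genes of pyruvate entry and the other HIF targets. Of 14 genes that regulate HIF-1, 11 had a log2 fold change above 0 and 3 below, with a median of 0.19, and 4 were higher at an unadjusted p under 0.05 (3.71% of all genes). Arnt, the partner of Hif1a, was at 56.1 ± 12.4 CPM with PBS and 78.9 ± 6.07 CPM under exendin-4 (edgeR log2 fold change 0.49, SE 0.15, adjusted p = 0.432), and 0.41 without PBS 1. Siah1a, a ubiquitin ligase that targets the prolyl hydroxylases, was at 28.0 and 36.9 CPM (edgeR log2 fold change 0.40, adjusted p = 0.548). In 2 genes of this list, Cited2 and Eloc, named after their values were seen, the groups did not overlap, with higher values under exendin-4 (2.29% of all genes). Of 27 tested of 31 other HIF targets, 10 were above 0 and 17 below, with a median of -0.08. In 1 of them, Jmjd6, also named after its values were seen, the groups did not overlap, at 82.6 ± 2.25 CPM with PBS and 75.4 ± 2.49 CPM under exendin-4 (2.66% of all genes were separated in this direction). The collagen hydroxylase gene P4ha2 was at 9.11 ± 6.36 CPM with PBS and 3.03 ± 1.43 CPM under exendin-4 (edgeR log2 fold change -1.60, adjusted p = 0.429), and -1.01 without PBS 1. The mitochondrial protein gene Fam162a was at 74.6 and 60.7 CPM (-0.30).

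Of 17 other glycolysis enzymes 6 were above 0 and 11 below, with a median log2 fold change of -0.17. Pgam2, the muscle phosphoglycerate mutase, had a log2 fold change of -1.71 (edgeR adjusted p = 0.636) and -0.59 without PBS 1. In the pentose phosphate pathway, which branches off at glucose 6-phosphate, the median of 9 genes was -0.04, with Pgd at -0.24 and Tkt at -0.19. For pyruvate entry into mitochondria and its use there, 12 of 13 genes were tested, 6 above 0 and 6 below. Among them Pdp2, the phosphatase that activates pyruvate dehydrogenase and so opposes the Pdk kinases, was at 107 ± 28.2 CPM with PBS and 67.5 ± 10.3 CPM under exendin-4. The groups did not overlap for Pdp2 (2.66% of all genes tested were apart in this direction). Its edgeR log2 fold change was -0.67 (SE 0.18, adjusted p = 0.351), and -0.49 without PBS 1. Mpc1, a subunit of the mitochondrial pyruvate carrier, had 0.22. Of 16 genes that signal glucose and growth to glycolysis, 9 were above 0 and 7 below, with a median of 0.11, and the tumour suppressor gene Trp53 (-0.25) and the glucose sensor gene Mlxip (-0.21) had the smallest p.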

How the data were processed

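RNA from CD45-sorted gut IELs of 8 mice was prepared with TRIzol and the TruSeq stranded mRNA kit, per the labels' protocols. Per the submitters' processing notes, the tools were STAR 2.7.9a and DESeq2 and the build mm10. How reads were counted, and with which annotation and strand setting, is not given in the sources used here. All deposited values are raw counts per gene symbol. Groups came from the labels, which give no litter, cage or day. Replicates of a group all differed beyond counting noise (mean chi-square per gene 20.6 to 77.1).

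The test was that of edgeR 4.0.16 under R 4.3.3 (filterByExpr, TMM, robust quasi-likelihood F test) over 14691 genes with Benjamini-Hochberg adjustment, checked on simulated counts. SEs were derived from the fold change and its F statistic. Each ± is an SD over the 4 mice of a group unless another n is given, and CPM are scaled by TMM. CPM per kb divides by the union of exons in GENCODE vM21. Alternatives were DESeq2 1.42.0, limma-voom (limma 3.58.1), other scaling, no filter, a replicate block, an epithelial score as covariate and libraries left out. Replicate numbers did not pair the mice.

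The members, lists and tests were chosen with earlier results of these data known, PBS 1 included. By rule, values per library are given for genes past the threshold, genes whose groups do not overlap, the 3 smallest p per class and the most abundant gene per class; of each other list the 2 genes of smallest p are named, and of markers Epcam, Cd3e, Csf1r and Pecam1. Some single-gene results under this rule are not reported here.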

Additional observations from a re-analysis of the deposited data

Results flagged for a closer look

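Within each group of 4 mice, the highest and lowest values of the 35 genes (log2 CPM) and of the isozyme shares were compared with Dixon's 95% limit for the gap to the nearest value as a part of the group's range. Of 92 groups looked at, 5 passed it, where chance alone would give 4.6, since about 1 in 20 groups is marked by chance. Ex4 4 was the lowest exendin-4 mouse for Aldoa, at 8.79 on the log2 CPM scale with the next at 8.98, and for Pgam1, at 5.10 with the next at 5.44. Ex4 4 was also the library with the fewest counts. The share of Pfkp among phosphofructokinases was 69.1% in PBS 1, with the next PBS mouse at 58.5%. The same share was 52.2% in Ex4 1, the lowest of its group, with the next at 57.4%. Ldha made up 98.2% of lactate dehydrogenase signal in PBS 2, with the next lowest PBS mouse at 98.8%.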

How the results depend on the processing

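Under 16 alternatives 0 of the 35 genes were called, with a lowest adjusted p of 0.0911 (Pfkp, DESeq2). For some of them, such as Vegfa and Egln3, DESeq2 gave no adjusted p and so could make no call. Genes called over the whole table numbered 83 by DESeq2, 1 by limma-voom, 8 without the filter on low counts, 1 with the epithelial covariate and 1 with the replicate block. With 1 library left out they numbered 1 to 14, the 14 without PBS 2. Same-numbered mice were correlated at 0.09, -0.03, -0.24 and 0.14, so the numbers did not pair them, and the block changed no call of the 35. Genes of the set whose groups did not overlap numbered 2 to 5 with 1 library left out and 6 without both PBS 2 and Ex4 3 (14.2% of all genes), where the hypoxia median was 0.15. Of 280 log2 fold changes with 1 library left out, 21 changed sign, in 14 genes whose log2 fold change was smaller than its SE, with ranges of Ankrd37 -0.30 to 0.0093, Bnip3 -0.0077 to 0.30, Eno2 -1.37 to 0.038, Gapdh -0.049 to 0.14, Hk2 -0.090 to 0.19, Kdm3a -0.0083 to 0.25, Ldha -0.026 to 0.13, Pdk1 -0.38 to 0.035, Pdk3 -0.13 to 0.013, Pfkfb3 -0.018 to 0.20, Pfkm -3.5e-05 to 0.40, Pgam1 -0.089 to 0.041, Slc16a3 -0.32 to 0.055 and Slc2a3 -0.20 to 0.089. Of 280 values under the other alternatives 3 changed sign, all without both PBS 2 and Ex4 3: Hk2 to -0.051, Pdk3 to 0.0045 and Egln1 to 0.093. With the longest transcript as length, the share of Hk2 was 69.9% with PBS and 68.5% with exendin-4, of Aldoa 99.9% and 99.9%, of Ldha 99.1% and 98.8%, and of Pdk3 83.5% with exendin-4. The cause was not tested. With 4 mice a group and adjustment over 14691 genes, a gene that was not called may still differ between groups. The data are compatible with true changes of any size within the printed confidence intervals. Genes at a few CPM (Aldoc, Eno2, Pfkm, Slc16a3) had SEs from 0.37 to 1.07.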
